A study of Mus musculus with 12 samples.

Results

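Slpi, Saa3, Lcn2 and Hp encode secreted proteins of acute-phase and mucosal defence, and their RNA was followed here in cultured mouse macrophages. The 4 genes are 4 of the 48795 genes listed in the count tables, and all 4 were among the 11228 genes tested. Slpi and Saa3 were picked on these libraries for their large changes with particulate matter (PM) or genotype, so their values in those comparisons are a description and carry no test. Lcn2 and Hp were placed beside them as genes of the same kind, with earlier results of these libraries known, and no measured value is given as the reason for their choice.

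RNA was sequenced from bone marrow-derived macrophages (BMDMs), which are macrophages grown from mouse marrow with the growth factor M-CSF, in 12 libraries that formed 6 groups of 2. WT cells, labelled with the strain C57BL/6, and Acod1-/- cells, labelled with the strain C57BL/6NJ-Acod1em1(IMPC)J/J, each received vehicle, PM at 20 μg/cm2 for 24 hours, or 4-octyl itaconate (OI) at 0.25 mM for 2 hours before the same PM exposure. PM was an urban dust reference material, Acod1 encodes the mitochondrial enzyme that makes itaconate, and OI is an itaconate ester that crosses the cell membrane. The comparisons ask what PM does to these genes, whether OI changes the response, and whether cells labelled Acod1-/- respond differently. No group received OI alone, so OI was compared with its absence in PM-treated cells. The study's methods list young adult male mice of the same age range for both strains, and give the WT strain as C57BL/6NJ. Whether the libraries of a group came from separate mice or cultures is not given in the sources used here, so p-values measure the spread between these libraries, which may be technical.

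The acute-phase response is a rapid change in secreted and plasma proteins that follows infection or injury, driven by cytokines such as IL-1, IL-6 and TNF through NF-kB, STAT3 and C/EBP transcription factors. The liver is its main source, but macrophages and epithelia make some of these proteins locally. Secretory leukocyte protease inhibitor (Slpi) blocks neutrophil serine proteases such as elastase. Serum amyloid A3 (Saa3) is the serum amyloid A protein made mostly outside the liver. Haptoglobin (Hp) binds free haemoglobin, and lipocalin 2 (Lcn2) binds bacterial siderophores and so withholds iron from bacteria.

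On the GRCm38 assembly, all 4 genes lie on the minus strand. Slpi (ENSMUSG00000017002.14) spans chr2:164354070-164389095 and Lcn2 (ENSMUSG00000026822.14) spans chr2:32384633-32388252. Saa3 (ENSMUSG00000040026.8) spans chr7:46711998-46715700 and Hp (ENSMUSG00000031722.10) spans chr8:109575128-109579172. Among annotated exons, those of Slpi overlap Mir7678, which had 6 reads over the 12 libraries, and those of the other 3 genes overlap no other gene. The nearest relatives of Saa3 were at or close to 0, with 1 read for Saa1, 0 for Saa2 and 2 for Saa4 over all 12 libraries.

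The promoters of 3 of the 4 genes were found in the RefSeq table for GRCm38.p6, and they are shown because these genes moved together with PM and apart with OI. Each runs from 250 bases before to 50 bases after the RefSeq start site, 5′ to 3′ on the minus strand, and capitals mark matches to the C/EBP motif TTNNGNAA on either strand.
Slpi, chr2:164356458-164356757: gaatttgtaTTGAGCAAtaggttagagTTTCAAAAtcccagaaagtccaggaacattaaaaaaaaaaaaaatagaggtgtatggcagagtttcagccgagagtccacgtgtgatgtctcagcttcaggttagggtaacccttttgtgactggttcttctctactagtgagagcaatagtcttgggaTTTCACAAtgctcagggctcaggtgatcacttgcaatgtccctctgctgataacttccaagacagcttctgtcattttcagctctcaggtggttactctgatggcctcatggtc
Saa3, chr7:46715627-46715926: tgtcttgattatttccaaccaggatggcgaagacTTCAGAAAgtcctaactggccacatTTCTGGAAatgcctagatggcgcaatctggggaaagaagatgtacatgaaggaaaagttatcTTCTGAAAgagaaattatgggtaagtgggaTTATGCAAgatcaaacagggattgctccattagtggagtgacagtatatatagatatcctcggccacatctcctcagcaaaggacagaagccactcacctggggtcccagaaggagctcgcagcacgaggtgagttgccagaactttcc
Lcn2, chr2:32387690-32387989: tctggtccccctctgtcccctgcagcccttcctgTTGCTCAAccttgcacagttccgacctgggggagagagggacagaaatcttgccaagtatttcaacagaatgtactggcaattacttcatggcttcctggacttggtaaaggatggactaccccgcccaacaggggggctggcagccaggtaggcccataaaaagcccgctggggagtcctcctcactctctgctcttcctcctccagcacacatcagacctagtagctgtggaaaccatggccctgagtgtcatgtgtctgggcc

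The Slpi promoter held 3 C/EBP matches, the Saa3 promoter held 4, and the Lcn2 promoter held 1. The match nearest to the start site lay at position -64 in Slpi, -99 in Saa3 and -216 in Lcn2. Such a match is common, since 40.7% of the 32851 promoters of the table hold at least 1. Of the other motifs searched on both strands, none was present in these 3 windows, and the share of all promoters that hold them was 4.51% for NF-kB, 8.3% for STAT (TTCNNNGAA), 7.81% for AP-1 (TGANTCA), 12.4% for the core of the NRF2 antioxidant response element (TGACNNNGC) and 13.6% for the TATA box (TATAAA). These counts describe letters in a window and are not binding sites.

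The libraries held 33616577 to 36817898 counts, and the levels below are normalized CPM, which are counts scaled to library size with TMM factors. All 8 macrophage markers were tested, and their summed level was 14340 to 27230 normalized CPM over the 12 libraries. Neutrophils are a known source of Lcn2, Slpi and Hp, and 4 of 12 neutrophil markers were tested. The summed neutrophil markers were 35.0 to 64.7 normalized CPM with vehicle, 274.5 to 342.7 with PM and 403 to 457.1 with OI and PM, and Mmp8 and S100a8 made up most of each sum. The neutrophil-defining gene Ly6g had 1 read over all 12 libraries, Retnlg had 6 and Mpo had 22. Acod1, the targeted gene, was at 175.8 ± 7.78 normalized CPM (SD, n = 2) in PM-treated WT cells and at 100.8 ± 9.57 in PM-treated cells labelled Acod1-/-, and counts over a whole gene cannot show whether these reads come from an intact transcript. Nnt, which is partly deleted in the C57BL/6J substrain, was at 37.5 normalized CPM in vehicle-treated WT cells and at 73.4 in vehicle-treated cells labelled Acod1-/-, and Wdfy1 was at 16.0 and 71.8. Exons of this Nnt entry share 3339 of 7037 bases with a second entry named Nnt, and exons of Wdfy1 overlap those of Mrpl44. The counts of both genes are therefore uncertain. The effect of the Acod1 allele and other genetic differences between these mice cannot be told apart. In whole cultures, a change in the number of cells that make an RNA and a change in RNA per cell cannot be told apart either.

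Slpi was close to absent without PM and high in every library that received PM, with or without OI. WT vehicle libraries had 8 and 8 reads, or 0.214 and 0.204 normalized CPM, and vehicle libraries labelled Acod1-/- had 5 and 5 reads, or 0.137 and 0.139. PM-treated WT libraries were at 20.0 and 27.1 normalized CPM, and those labelled Acod1-/- at 26.3 and 24.8. The groups with and without PM were far apart, and the PM groups of the genotypes overlapped. With OI before PM, Slpi was at 15.8 and 30.5 normalized CPM in WT cells, a wider spread than in any other group for this gene, and at 30.4 and 31.6 in cells labelled Acod1-/-.

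Saa3 was measurable without PM, rose in PM-treated cells of both genotypes, and was close to its vehicle level when OI preceded PM. Its normalized CPM was 2.46 and 2.37 in WT vehicle libraries, 42.9 and 45.1 with PM, and 2.73 and 3.65 with OI and PM. In libraries labelled Acod1-/-, it was 4.81 and 4.78 with vehicle, 138.6 and 132.1 with PM, and 7.52 and 6.16 with OI and PM. In each treatment, the mean was higher in libraries labelled Acod1-/-, a description, since Saa3 was picked for its changes with PM or genotype.

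Hp followed the same order of treatments at a lower level. WT libraries were at 0.641 and 0.764 normalized CPM with vehicle, 12.4 and 16.6 with PM, and 0.898 and 0.947 with OI and PM. Libraries labelled Acod1-/- were at 0.738 and 0.750 with vehicle, 25.1 and 20.9 with PM, and 0.691 and 1.17 with OI and PM. The PM libraries of either genotype were above all 8 others.

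Lcn2 was the lowest of the 4 genes after PM. WT libraries had 17 and 23 reads with vehicle, 72 and 125 with PM, and 7 and 17 with OI and PM, which is 0.454 and 0.585, 2.06 and 3.60, and 0.210 and 0.575 normalized CPM. Libraries labelled Acod1-/- had 29 and 20 reads with vehicle, 152 and 169 with PM, and 17 and 22 with OI and PM, which is 0.793 and 0.555, 4.47 and 4.86, and 0.511 and 0.678 normalized CPM. Every PM library was above every library without PM or with OI, while vehicle libraries and OI and PM libraries overlapped within each genotype.

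**Figure D1:**
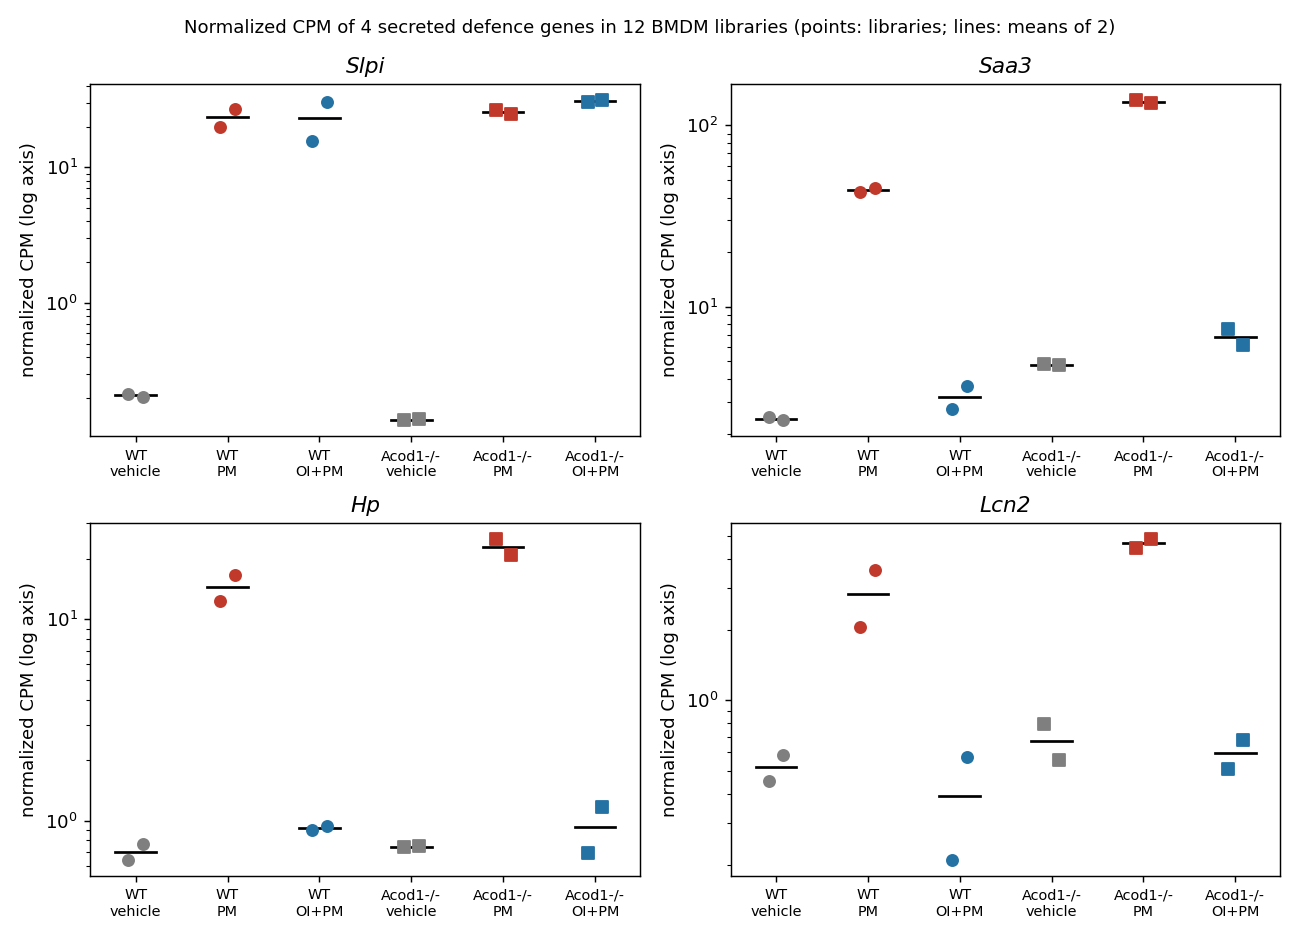
Normalized CPM (log axis) of Slpi, Saa3, Hp and Lcn2 in the 6 groups, with 1 point per library (circles WT, squares Acod1-/-; grey vehicle, red PM, blue OI and PM) and a line at the mean of 2. Slpi stays high with OI, while the other 3 genes return to near their vehicle level.

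Compared per kilobase of exon, a scale that allows levels of different genes to be set side by side, the order after PM in WT cells was Slpi at 20.0 ± 4.25 CPM per kilobase (SD, n = 2), Saa3 at 16.9 ± 0.605, Hp at 9.03 ± 1.88 and Lcn2 at 1.08 ± 0.417. Slpi and Saa3 did not differ beyond their spread there, since the lower Slpi library was at 17.0 and the higher Saa3 library at 17.3. In PM-treated cells labelled Acod1-/-, Saa3 was first at 51.9 ± 1.77 CPM per kilobase, followed by Slpi at 21.7 ± 0.879, Hp at 14.3 ± 1.81 and Lcn2 at 1.78 ± 0.106. The order depends on the length used. All annotated exons of Saa3 cover 2606 bases, but its RefSeq-matched transcript is 555 bases long, and with such transcript lengths, an alternative added after the data were seen, Saa3 was at 79.2 ± 2.84 CPM per kilobase and Slpi at 26.9 ± 5.73 in PM-treated WT cells.

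The first comparison asks how strongly PM raised these genes. In WT cells, Hp rose by a log2 fold change of 4.36 (SE 0.231, edgeR adjusted p = 1.14e-06) and Lcn2 by 2.43 (SE 0.361, adjusted p = 0.001004). In cells labelled Acod1-/-, Hp rose by 4.94 (SE 0.226, adjusted p = 4.262e-07) and Lcn2 by 2.78 (SE 0.328, adjusted p = 0.0001944). Both genes were called in each genotype, where a call needs a change of at least 2-fold with an adjusted p no higher than 0.05, and 4.15% of all tested genes were called in WT cells and 4.5% in cells labelled Acod1-/-. Hp and Lcn2 exceeded the expression filter of 1.5 CPM in the 4 PM libraries and in 0 of the other 8, so they entered the test through the group where they were high, and the count of calls supports nothing beyond the values themselves. Several neutrophil markers were also higher with PM. In WT cells, normalized CPM with vehicle and with PM was 56.4 and 314.6 for Mmp8, 4.05 and 12.6 for S100a8, 1.01 and 1.71 for S100a9, 0.787 and 0.990 for Ngp, 0.729 and 1.12 for Cebpe, 0.576 and 0.717 for Ltf and 0.402 and 0.244 for Cxcr2. Camp, Elane and Mpo had at most 5 reads in a library of these groups, and Ly6g and Retnlg had 0. In cells labelled Acod1-/-, normalized CPM with vehicle and with PM was 28.7 and 254.5 for Mmp8, 3.69 and 12.8 for S100a8, 1.32 and 3.27 for S100a9, 1.09 and 2.10 for Ngp, 1.05 and 1.35 for Cebpe, 0.772 and 1.45 for Ltf and 0.304 and 0.203 for Cxcr2. Camp, Elane, Mpo and Retnlg had at most 8 reads in a library there, and Ly6g had 0. Among the markers with levels given, the mean was higher with PM except for Cxcr2, but some of these differences did not exceed the spread. In WT cells, Ngp had 17 and 44 reads with vehicle and 32 and 37 with PM. There Ltf had 25 and 19 reads with vehicle and 25 and 25 with PM. The part of neutrophils in the changes of Hp and Lcn2 was not tested.

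For Slpi and Saa3 the PM values are the ones that chose them. Slpi differed by a log2 fold change of 6.79 in WT cells and 7.50 in cells labelled Acod1-/-, which placed it second among the 11228 genes in both genotypes. Its ratio of mean levels was 112.8 and 185.5, and with 5 to 8 reads in a vehicle library these ratios are imprecise. Saa3 differed by 4.19 in WT cells and 4.82 in cells labelled Acod1-/-, at rank 25 and 18, beside ranks 22 and 14 for Hp and 86 and 69 for Lcn2.

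The second comparison asks how OI pretreatment changed the response to PM, and here Slpi parted from the other 3 genes. In WT cells, Saa3 fell with OI with a log2 fold change of -3.79 (SE 0.129, edgeR adjusted p = 1.357e-08), and so did Hp with -3.97 (SE 0.229, adjusted p = 4.394e-07) and Lcn2 with -2.88 (SE 0.404, adjusted p = 0.0002771). In cells labelled Acod1-/-, the log2 fold changes were -4.31 for Saa3 (SE 0.121, adjusted p = 4.935e-09), -4.62 for Hp (SE 0.222, adjusted p = 1.147e-07) and -2.97 for Lcn2 (SE 0.343, adjusted p = 7.917e-05). Saa3, Hp and Lcn2 were thus called in each genotype, where 10.8% of all tested genes were called in WT cells and 9.83% in cells labelled Acod1-/-. Because Hp and Lcn2 passed the filter only through the PM libraries, to which OI is compared here, this count too is given as a description. Lcn2 in WT cells was -3.73 without OI and PM replicate 2 and -2.29 without OI and PM replicate 1, and it was called in both. The PM libraries in these comparisons are also among those on which Slpi and Saa3 were picked, so for these 2 genes the values with OI are not independent of the choice. The neutrophil markers again went both ways with OI. In WT cells, Mmp8 was at 373.9, S100a8 at 44.6 and Cxcr2 at 0.336 normalized CPM with OI and PM, above their PM levels, while S100a9 was at 0.446, Cebpe at 0.227, Ngp at 0.107 and Ltf at 0.032, below theirs. In cells labelled Acod1-/-, Mmp8 was at 254.5 with PM and 421.6 with OI and PM, S100a8 at 12.8 and 32.1 and Cxcr2 at 0.203 and 0.380, while S100a9 was at 3.27 and 1.03, Ngp at 2.10 and 0.561, Ltf at 1.45 and 0.409 and Cebpe at 1.35 and 0.440. The part of neutrophils in the OI values was not tested.

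Slpi was not called with OI in either genotype. The log2 fold change was -0.03 in WT cells (SE 0.244, 95% interval -0.58 to 0.51, edgeR adjusted p = 0.9305) and 0.28 in cells labelled Acod1-/- (SE 0.241, 95% interval -0.26 to 0.82, adjusted p = 0.4222). Both intervals lay within a 2-fold change in either direction. They are given as a description, because Slpi was picked on the same PM libraries. In cells labelled Acod1-/-, the mean was 30.97 normalized CPM with OI and PM and 25.55 with PM, less than a 2-fold difference. In WT cells, the OI and PM libraries lay on either side of the PM libraries, and the estimate followed the library used: it was 0.37 (adjusted p = 0.03697) without OI and PM replicate 1, and -0.58 (adjusted p = 0.009339) without OI and PM replicate 2, with neither a 2-fold change. Without PM replicate 2 it was 0.20.

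**Figure D2:**
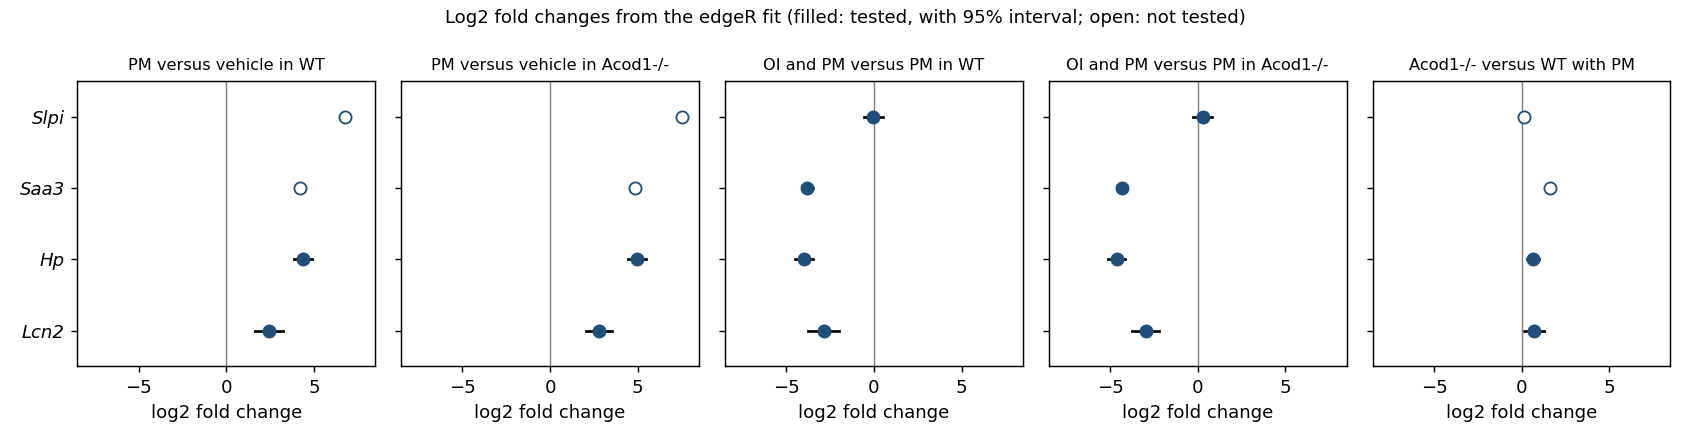
Log2 fold changes of the 4 genes from the edgeR fit in 5 comparisons, with filled points and bars for tested values and their 95% intervals, and open points for values that were not tested. Slpi lies at -0.03 and 0.28 with OI, where the other 3 genes lie between -2.88 and -4.62.

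Expressed as a share of the PM-induced rise above vehicle in normalized CPM, 98.2% of the Slpi rise was left after OI in WT cells and 121.3% in cells labelled Acod1-/-. The WT libraries gave 66.6% and 129.7%, and the libraries labelled Acod1-/- gave 118.9% and 123.7%. For Saa3, 1.87% was left in WT cells and 1.57% in cells labelled Acod1-/-, and for Hp 1.60% and 0.841%. For Lcn2 the means were below the vehicle level, at -5.52% and -2.00%.

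**Figure D3:**
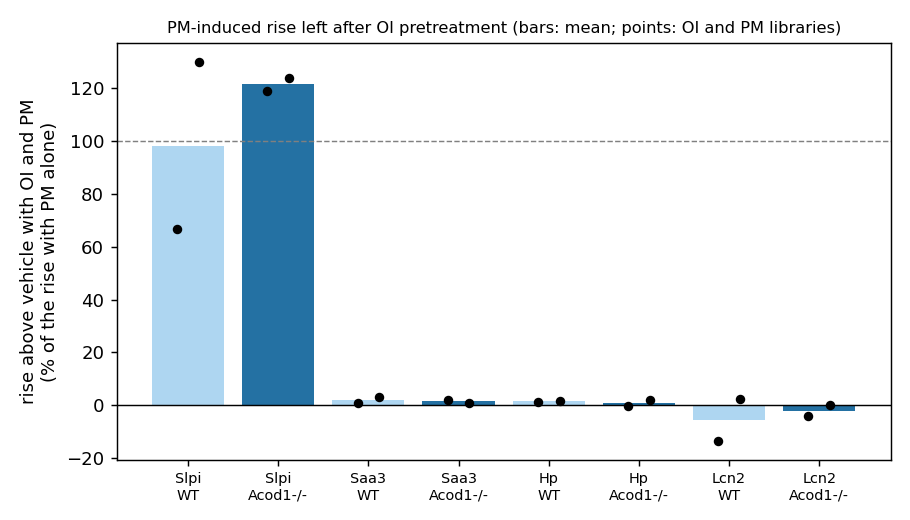
Rise above the vehicle mean with OI and PM, as a percentage of the rise with PM alone, for each gene and genotype (bars, mean; points, OI and PM libraries; dashed line, 100%). Slpi libraries range from 66.6% to 129.7%, and all libraries of Saa3, Hp and Lcn2 are below 3%.

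Measured against vehicle rather than PM, Saa3, Hp and Lcn2 held little of their PM response in cells that had OI and PM, while Slpi held it. The log2 fold change of Hp was 0.39 in WT cells (SE 0.340, 95% interval -0.37 to 1.15, edgeR adjusted p = 0.3353) and 0.32 in cells labelled Acod1-/- (SE 0.337, 95% interval -0.43 to 1.07, adjusted p = 0.4517). The WT value of Hp was 0.17 with total count scaling and 0.02 with the gene length correction. The log2 fold change of Lcn2 was -0.44 in WT cells (SE 0.539, 95% interval -1.65 to 0.76, edgeR adjusted p = 0.4849) and -0.18 in cells labelled Acod1-/- (SE 0.464, 95% interval -1.22 to 0.85, adjusted p = 0.7588). Thus 0 of these 2 genes were called by edgeR or by DESeq2 in either genotype, where 16.1% of all tested genes were called in WT cells and 13.1% in cells labelled Acod1-/-. An unadjusted p under 0.05 was found for 0 of the 2, beside 7783 of all 11228 tested genes in WT cells and 6327 in cells labelled Acod1-/-. Both genes exceeded the filter in 0 of the libraries compared here and were tested through the PM libraries alone. The lack of calls is therefore a description and supports no return to vehicle. As a description, Saa3 differed from vehicle by 0.39 and 0.51 on the log2 scale and Slpi by 6.76 and 7.78. Leaving out 1 library turned the sign of Lcn2 in WT cells (0.14 without OI and PM replicate 1, and -1.30 without replicate 2), and in cells labelled Acod1-/- that of Lcn2 (0.10 without vehicle replicate 1, 0.01 without OI and PM replicate 1) and that of Hp (-0.10 without OI and PM replicate 2).

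The third comparison asks whether the genotypes differed under the same treatment. With PM, Hp was higher in cells labelled Acod1-/- by a log2 fold change of 0.66 (SE 0.158, 95% interval 0.31 to 1.02, edgeR adjusted p = 0.06479) and Lcn2 by 0.72 (SE 0.262, 95% interval 0.14 to 1.31, adjusted p = 0.2401), and neither passed the threshold. The Lcn2 value was 0.37 without WT replicate 1 and 1.18 without WT replicate 2 (adjusted p = 0.4024 and 0.107). Over the alternatives the adjusted p of Hp ranged from 0.004467 to 0.3603, with 0.02476 in DESeq2, 0.004467 with the gene length correction and 0.004702 with the crossed replicate block, and that of Lcn2 from 0.04086 to 0.7006, and no alternative gave a call, because the values stayed under 2-fold or the p above 0.05. Both had an unadjusted p under 0.05, as had 1577 of all 11228 tested genes. By edgeR or DESeq2, 0 of 2 were called, beside 0.561% of all tested genes called. Some neutrophil markers were also higher in PM-treated cells labelled Acod1-/- than in PM-treated WT cells, with S100a9 at 3.27 and 1.71 normalized CPM, Ngp at 2.10 and 0.990, Ltf at 1.45 and 0.717 and Cebpe at 1.35 and 1.12. S100a8 was at 12.8 and 12.6, Mmp8 at 254.5 and 314.6 and Cxcr2 at 0.203 and 0.244, and the part of neutrophils in the values of Hp and Lcn2 was not tested. Saa3, picked on its difference, was higher by 1.62 with PM, by 0.99 with vehicle and by 1.11 with OI and PM, and Slpi differed by 0.12, -0.59 and 0.43. The vehicle value of Slpi rests on 5 to 8 reads a library, its value with PM was -0.09 without WT replicate 1, and its value with OI and PM was 0.97 without WT replicate 2 and 0.02 without WT replicate 1.

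With vehicle, the genotype difference was 0.08 for Hp (SE 0.345, 95% interval -0.69 to 0.85, edgeR adjusted p = 0.998) and 0.37 for Lcn2 (SE 0.461, 95% interval -0.66 to 1.40, adjusted p = 0.9651). With OI and PM it was 0.01 for Hp (SE 0.332, 95% interval -0.73 to 0.75, edgeR adjusted p = 0.984) and 0.63 for Lcn2 (SE 0.540, 95% interval -0.58 to 1.84, adjusted p = 0.4242). Hp and Lcn2 exceeded the filter in 0 of the libraries compared here and were tested through the PM libraries alone, so the lack of calls is a description. In both comparisons 0 of 2 had an unadjusted p under 0.05, beside 1141 of all 11228 tested genes with vehicle and 3281 with OI and PM. In both, 0 of 2 were called by edgeR or DESeq2, beside 0.481% of all tested genes called with vehicle and 0.917% with OI and PM. These backgrounds of 54 and 103 genes are unsteady. With vehicle, leaving out 1 library gave 32 (WT replicate 1), 35 (WT replicate 2), 34 (Acod1-/- replicate 1) or 33 (Acod1-/- replicate 2) genes. With OI and PM it gave 347 without WT replicate 1, 68 without WT replicate 2, 38 without Acod1-/- replicate 1 and 46 without Acod1-/- replicate 2, and the compared groups alone gave 2. With vehicle, the Lcn2 value was 0.09 without Acod1-/- replicate 1 and 0.60 without replicate 2, and 0.20 and 0.57 without WT replicate 1 or 2. With OI and PM, the Lcn2 value was 0.04 without WT replicate 1 and 1.49 without WT replicate 2, uncalled in both. The sign of the Hp value turned without WT vehicle replicate 1 (-0.04) and, with OI and PM, without WT replicate 1 (-0.03) or Acod1-/- replicate 2 (-0.41).

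The interactions ask whether PM or OI acted differently in the 2 genotypes. The PM effect was larger in cells labelled Acod1-/- by 0.59 on the log2 scale for Hp (SE 0.382, 95% interval -0.27 to 1.44, edgeR adjusted p = 0.9998) and by 0.35 for Lcn2 (SE 0.538, 95% interval -0.85 to 1.55, adjusted p = 0.9998). Over the fits that left out 1 library, the interaction with PM ranged for Lcn2 from 0.0045 (without WT PM replicate 1) to 0.81 (without WT PM replicate 2) and for Hp from 0.39 to 0.81 with the same libraries left out. The Lcn2 value was also 0.15 and 0.12 without vehicle replicate 2 of WT cells or of cells labelled Acod1-/-, and 0.63 without vehicle replicate 1 of the latter. The OI effect differed by -0.65 for Hp (SE 0.370, 95% interval -1.48 to 0.17, edgeR adjusted p = 0.8202) and by -0.09 for Lcn2 (SE 0.639, 95% interval -1.52 to 1.34, adjusted p = 0.9765). In each interaction 0 of 2 genes and 0% of all 11228 tested genes were called by edgeR, while 273 and 717 genes had an unadjusted p under 0.05, neither Hp nor Lcn2 among them, and DESeq2 called 0 and 5 genes. The 0 of the OI interaction depends on the libraries and the fit, with 44 genes called without WT OI and PM replicate 1, 1 without WT PM replicate 1, 4 with the gene length correction and 2 when that was joined to the replicate block. The interaction of PM stayed at 0 in all of these alternatives that apply to it. The OI interaction of Hp was -0.32 without OI and PM replicate 1 of the cells labelled Acod1-/- and -1.08 without replicate 2. The OI interaction of Lcn2 turned to 0.27 without WT PM replicate 1, to 0.76 without WT OI and PM replicate 2 and to 0.10 without Acod1-/- OI and PM replicate 1. As a description, the interaction with PM was 0.70 for Slpi and 0.63 for Saa3, and that with OI was 0.31 and -0.51. Without WT OI and PM replicate 1, the OI value of Slpi was -0.10.

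Replicates of the PM-treated WT groups stood furthest apart across all genes, with an SD of the log2 difference between replicates of 0.26 with PM and 0.38 with OI and PM, where the other 4 groups were between 0.13 and 0.17. The difference was related to exonic length, with a Spearman's rho across genes, which are not independent replicates, of -0.60 and -0.61. Slpi was higher in replicate 2 by 0.44 and 0.95 in these groups, and Lcn2 by 0.79 and 1.24.

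Over the 12 libraries, the log2 levels of Saa3, Hp and Lcn2 correlated closely, with Pearson's r of 0.965 for Saa3 and Hp, 0.954 for Saa3 and Lcn2 and 0.947 for Lcn2 and Hp. Slpi had r of 0.543 with Saa3, 0.538 with Hp and 0.392 with Lcn2. The points are 6 groups of 2 libraries, so these values describe the pattern over treatments and are given without a test.

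Among 9572 genes with an average of at least 5 CPM, the 5 most like Slpi were Cxcl3 (r = 0.993), Cxcl2 (0.991), Cd1d1 (0.990), Il18bp (0.985) and Bst1 (0.984). Cxcl2 and Cxcl3 encode chemokines that attract neutrophils. Cxcl3 was at 0.456 normalized CPM in WT cells with vehicle, 36.6 with PM and 46.0 with OI and PM, and Cxcl2 was at 4.14, 122.8 and 125.6. In cells labelled Acod1-/-, Cxcl3 was at 31.8 with PM and 34.2 with OI and PM, and Cxcl2 at 128.7 and 102.5. These genes were picked for their likeness to Slpi over the same libraries, so a shared pattern with OI follows from the choice. The 5 genes most like Saa3 were AW112010 (r = 0.993), Slc2a6 (0.988), Vasp (0.986), Lpcat2 (0.984) and Cxcl16 (0.980). AW112010 was at 5.67, 21.8 and 5.16 normalized CPM in WT cells with the 3 treatments in turn, and at 46.3 in PM-treated cells labelled Acod1-/-. Those most like Hp were Igsf6 (r = 0.988), Gm49342 (0.988), Arl5c (0.988), Slc31a2 (0.987) and Lpcat2 (0.987), and those most like Lcn2 were P2rx4 (0.980), Rab32 (0.979), Tor3a (0.977), AB124611 (0.976) and Cxcl10 (0.974). Cxcl10, an interferon-inducible chemokine, was at 0.988 normalized CPM in WT cells with vehicle, 12.6 with PM and 0.689 with OI and PM.

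The surrounding pathway was described with 5 lists of 112 genes without the 4 members, of which 48 were tested. Of these 48, 12 exceeded the filter in fewer than 2 vehicle libraries, 5 of the 12 in fewer than 2 libraries outside the PM groups, and Serpine2 in vehicle libraries alone, so the counts and medians of the lists are descriptions and support no direction. Of 26 other acute-phase plasma proteins, 2 were tested: C3, the central complement component, and Cp, which encodes the copper-carrying ferroxidase ceruloplasmin. Both rose with PM, C3 by a log2 fold change of 4.46 in WT cells (edgeR adjusted p = 3.962e-08) and 4.50 in cells labelled Acod1-/- (adjusted p = 2.998e-08), and Cp by 2.01 (adjusted p = 0.0004779) and 2.12 (adjusted p = 6.536e-05). Both fell with OI. The log2 fold change of C3 was -3.26 in WT cells (edgeR adjusted p = 9.305e-09) and -3.39 in cells labelled Acod1-/- (adjusted p = 7.551e-09), and that of Cp was -2.39 and -3.49. Cp was also higher in cells labelled Acod1-/- with PM, by 1.18 (edgeR adjusted p = 0.01212), a call that was lost without WT PM replicate 2 (1.07, adjusted p = 0.1033) and without Acod1-/- PM replicate 1 (0.98, adjusted p = 0.12). Cp exceeded the filter only in the PM libraries, so no median is given for these 2 genes. The median log2 fold change over all tested genes in WT cells was 0.01 with PM and 0.02 with OI. For the list counts here and below, the background is the share of all tested genes called. With PM it was 4.15% in WT cells and 4.5% in cells labelled Acod1-/-, and with OI it was 10.8% and 9.83%. The exons of Cp overlap those of Hps3, so its counts are uncertain, because the handling of strand is not given in the sources used here.

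The pairs of log2 fold changes that follow give WT cells first and cells labelled Acod1-/- second. Of 26 other protease inhibitors, not all of them secreted as Slpi is, 7 were tested, and in each genotype 2 rose and 2 fell with PM. The 2 that rose, Serpinb2 and Spint1, exceeded the filter in 0 vehicle libraries, so their values with PM are a description. Serpinb2, an inhibitor of plasminogen activators, rose by 4.57 in WT cells (edgeR adjusted p = 1.63e-06) and 6.51 in cells labelled Acod1-/- (adjusted p = 4.262e-07), and fell with OI (-3.03 and -2.66). Serpinb1a, an inhibitor of neutrophil elastase, fell with PM, with -1.14 in WT cells (edgeR adjusted p = 9.864e-05) and -2.08 in cells labelled Acod1-/- (adjusted p = 3.036e-06), and fell again with OI (-2.23 and -1.43). With PM it was also lower in cells labelled Acod1-/- than in WT cells (-1.03, edgeR adjusted p = 0.004991), close to the 2-fold threshold. That call was lost without WT PM replicate 2 (-0.97), without Acod1-/- PM replicate 2 (-0.93, adjusted p = 0.06797) and with the gene length correction (-0.98). Wfdc17, which like Slpi has a WAP domain, differed by 0.39 and 0.24 with PM without passing the test, and fell with OI, with -1.01 (edgeR adjusted p = 0.0005699) and -1.27 (adjusted p = 0.0001521). Serpine2 fell with PM (-1.54 and -2.40). Spint1 averaged under 1.5 CPM and is named after its values were seen: it rose with PM by 3.47 and 3.78 and with OI by a further 1.04 in WT cells, where the value in cells labelled Acod1-/- was 0.28 (edgeR adjusted p = 0.396). The median of the 7 was 0.11 with PM and -0.63 with OI in WT cells. Exons of Serpinb2 overlap those of Serpinb10.

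Of 20 other antimicrobial and granule proteins, the class of Lcn2, 7 were tested, of which S100a9, Chil3 and Ngp exceeded the filter in PM libraries alone. With PM, 1 of the 7 was called in WT cells and 5 in cells labelled Acod1-/-, a contrast that turns on the 2-fold threshold, and 0 of the 7 were called in the interaction of PM and genotype by edgeR. S100a8, a subunit of the calcium- and metal-binding protein calprotectin, rose with PM by 1.64 in WT cells (edgeR adjusted p = 0.007787) and 1.79 in cells labelled Acod1-/- (adjusted p = 0.004677), and rose further with OI by 1.82 (adjusted p = 0.0009333) and 1.33 (adjusted p = 0.007061). Its partner S100a9 fell with OI (-1.93 and -1.66), as did Chil3 (-3.86 and -3.08) and Ngp (-3.12 and -1.90), and these 3 low genes were named after their values were seen. With PM, the log2 fold change of the lysozyme gene Lyz1 was 0.73 in WT cells (edgeR adjusted p = 0.003772) and 1.01 in cells labelled Acod1-/- (adjusted p = 0.0005091), and that of Lyz2 was 0.96 (adjusted p = 0.0001672) and 1.10 (adjusted p = 5.729e-05), so only the second value of each reached 2-fold. The neutrophil granule genes Camp and Elane were below the filter, with at most 8 and 4 reads in a library.

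Of 16 receptors and binding partners, 13 were tested, and 4 rose with PM in each genotype. Of these 4, Fpr1, Fpr2 and Olr1 exceeded the filter in 0 vehicle libraries, so their values with PM are a description. Fpr1 and Fpr2 encode formyl peptide receptors, and FPR2 is a receptor for serum amyloid A. Fpr2 rose with PM by 4.63 in WT cells (edgeR adjusted p = 8.844e-07) and 4.92 in cells labelled Acod1-/- (adjusted p = 5.179e-07), and fell with OI (-3.39 and -3.12). Fpr1 rose by 5.92 and 5.66 and fell with OI (-3.23 and -2.23), and it was higher by 1.20 in cells labelled Acod1-/- with OI and PM (edgeR adjusted p = 0.001703), a call that was lost with the compared groups alone (1.22, adjusted p = 0.138). Tlr2, a receptor of bacterial lipoproteins that also senses serum amyloid A, rose by 2.45 and 2.75 and fell with OI (-2.65 and -2.79). Olr1 rose by 4.34 and 4.11 and fell with OI (-1.52 and -1.20). The mean log2 level of Cd14 in cells labelled Acod1-/- was 8.53 with PM and 7.01 with OI and PM. In WT cells it was 8.01 and 7.22. Cd163, the scavenger receptor for haptoglobin bound to haemoglobin, fell with OI in WT cells (-1.88, edgeR adjusted p = 7.044e-05), and its value in cells labelled Acod1-/- was -0.94 (adjusted p = 0.004815), just under 2-fold. With OI, 5 of 13 were called lower and 1 higher in each genotype. The latter was Scarb1 in WT cells and Cd36 in cells labelled Acod1-/-, but the values were close on either side of the 2-fold threshold, at 1.01 and 0.79 for Scarb1 (edgeR adjusted p = 4.774e-07 and 2.954e-06) and 0.93 and 1.19 for Cd36 (adjusted p = 2.545e-06 and 4.559e-07). The median of the 13 was 0.34 with PM and -0.75 with OI in WT cells. The Lcn2 receptor gene Slc22a17 was below the filter, with at most 22 reads in a library. Exons of Fpr2 overlap those of Fpr3.

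Of 24 upstream regulators, 19 were tested, and 8 rose with PM in WT cells and 9 in cells labelled Acod1-/-. Il1b exceeded the filter in 0 vehicle libraries and Il1a in 1, so their values with PM are a description. The cytokine genes Il1a and Il1b rose by 3.96 and 3.96 in WT cells and by 4.85 and 4.43 in cells labelled Acod1-/-, and Tnf rose by 2.53 and 2.05. Socs3, a STAT3 target and inhibitor of cytokine signalling, rose by 3.42 in each genotype. With OI, 5 fell in WT cells and 7 in cells labelled Acod1-/-, among them Il1a (-2.01 and -2.89), Il1b (-2.17 and -3.45), Nfkbiz (-1.37 and -1.44), and Il1rn, which encodes the IL-1 receptor antagonist (-1.97 and -2.05). Socs3 exceeded the filter in the 4 PM libraries and in 0 of the other 8, so its values with PM and with OI come from a gene that was tested because of its PM level. It fell with OI in cells labelled Acod1-/- (-2.56, edgeR adjusted p = 6.784e-06), and its value in WT cells was -0.96 (adjusted p = 0.003791), just under 2-fold. No gene of the list was called in the interaction of OI and genotype by edgeR, but without WT OI and PM replicate 1 there were 4 such calls over the 5 lists, and 2 in DESeq2. Cebpb, which encodes a C/EBP factor, rose with PM by 1.33 and 1.36, and its difference with OI was 0.50 in WT cells (edgeR adjusted p = 0.01487) and 0.29 in cells labelled Acod1-/- (adjusted p = 0.1353), under 2-fold in both. The median of the 19 was 0.87 with PM and -0.57 with OI in WT cells. Il6 was below the filter, with at most 37 reads in a library. Exons of Il1a, Il1b and Cebpb overlap those of other genes.

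**Figure D4:**
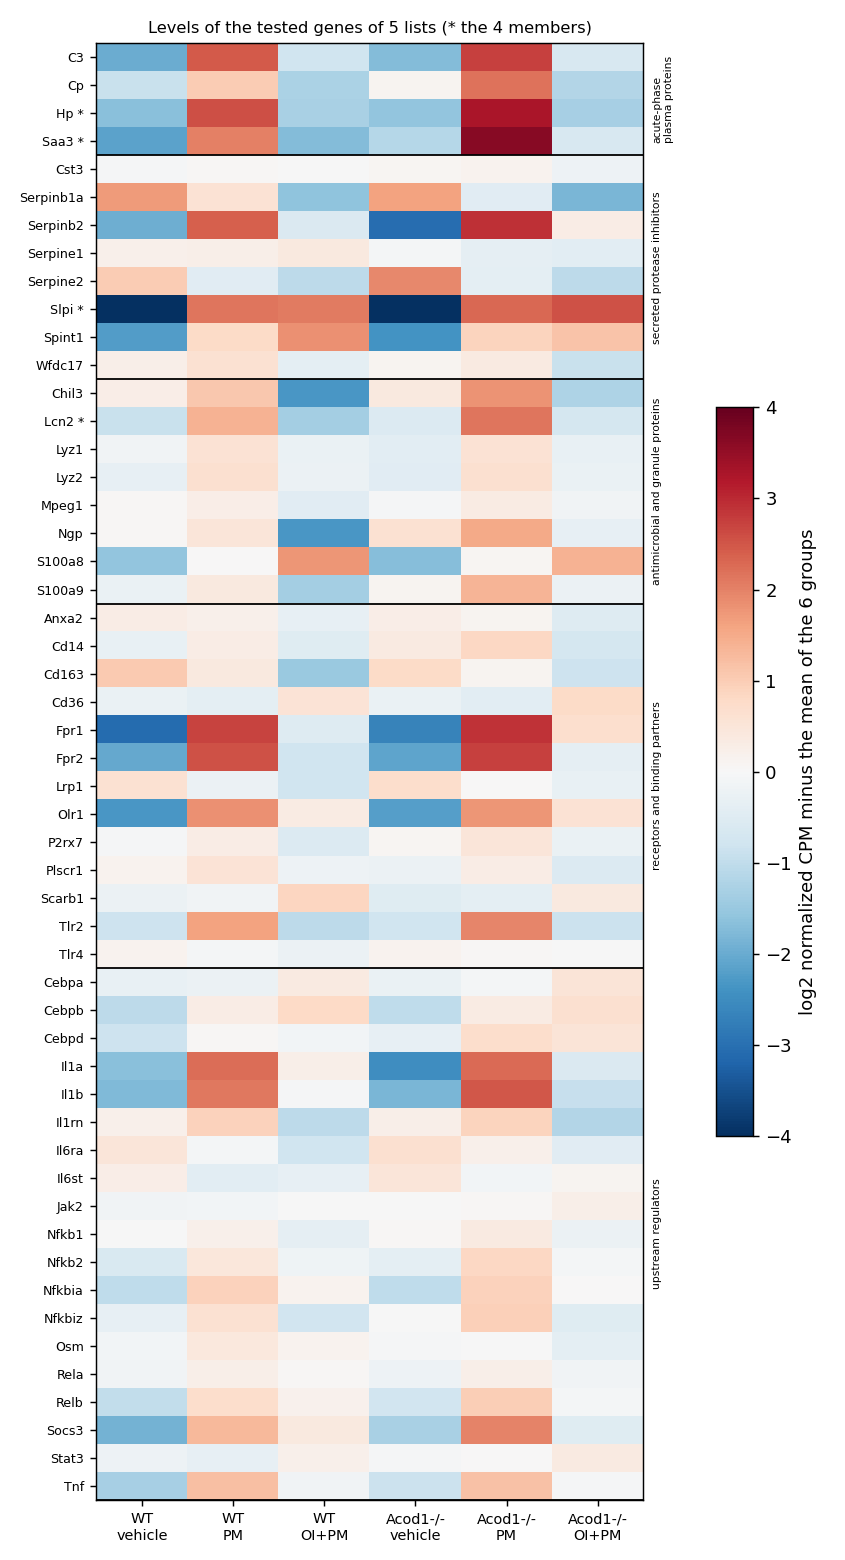
Group means of log2 normalized CPM minus the mean of the 6 groups for each tested gene of the 5 lists, with the 4 members starred and the colour scale ending at 4 in either direction, which the Slpi vehicle values pass. C3, Cp, Hp and Saa3 are highest in the PM columns, Slpi and Spint1 are above their mean in the PM and the OI and PM columns, and S100a8 is highest in the OI and PM columns.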

How the data were processed

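Per the labels and the study's methods, reads were checked with FastQC 0.11.5, aligned to GRCm38 with STAR 2.5.3a and assigned to genes with featureCounts, and Picard 2.9.0 is also named in the submitters' processing notes. The annotation release, strand setting and treatment of multimapping reads are not given in the sources used here. The authors deposited raw counts per gene, 1 table per library, and each library held 33616577 to 36817898 counts. Symbols came from a table of gene identifiers (48349 of 48795 matched), and positions and exonic lengths from the GENCODE annotation of GRCm38.

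Genes with CPM over 1.5 in at least 2 libraries were fitted in edgeR 4.0.16 (R 4.3.3) by quasi-likelihood with TMM scaling and 6 group means over all 12 libraries, with Benjamini-Hochberg adjustment over the 11228 genes. Calls needed an adjusted p of 0.05 or less and at least a 2-fold change. SE is the absolute log2 fold change over the root of the F statistic. The code was tested on simulated data. The members and lists were chosen with earlier results of these data known. Most list genes were named by rule in the PM, OI and genotype comparisons, and some, such as Cebpb, outside it. The rule took up to 4 called genes per list and comparison with the largest change at an average CPM of at least 1.5. For each member, the 5 genes with the highest Pearson correlation of log2 CPM (prior count 2) were named. Alternatives were DESeq2 1.42.0, RLE or total count scaling, other filters, the compared groups alone, a replicate block, a gene length correction, and leaving out each library.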

Additional observations from a re-analysis of the deposited data

How the results depend on the processing

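Of 575 values of the 4 genes recomputed under the alternatives, 526 kept their direction and side of the threshold or moved by less than 1 SD, 37 untested values moved by more, and 12 tested values changed sign. Among the untested values, Slpi changed sign in the genotype comparison with PM (-0.09 without WT PM replicate 1) and in the interaction of OI and genotype (-0.10 without WT OI and PM replicate 1). Every sign change came from leaving out 1 library, and none concerned a called value. Over the fits that left out 1 library, Slpi with OI in WT cells ranged from -0.58 to 0.37 on the log2 scale, the genotype difference of Hp from -0.038 to 0.21 in vehicle-treated cells and from -0.41 to 0.34 in those given OI and PM, Lcn2 with OI and PM against vehicle from -1.30 to 0.14 in WT cells and from -0.42 to 0.10 in cells labelled Acod1-/-, Hp in the latter from -0.10 to 0.65, and the interaction of OI and genotype for Lcn2 from -0.68 to 0.76. The lone library left in a group was assumed to vary like the other groups.

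A filter of CPM over 1.5 in all 12 libraries leaves no value for Slpi, Hp and Lcn2, and lowers the called genes of the 5 lists from 19 to 8 with PM and from 21 to 7 with OI in WT cells. Total count scaling moved the median of all genes with OI in WT cells from 0.02 to -0.11, and the Slpi value to -0.17. With the gene length correction, the Slpi value there was -0.23 (adjusted p = 0.1573). With the compared groups alone, Slpi with OI in cells labelled Acod1-/- was 0.28 (edgeR adjusted p = 0.002955), still under 2-fold. Hp between genotypes with PM had an adjusted p of 0.06479 in the main analysis, 0.02476 in DESeq2, 0.004467 with the gene length correction and 0.004702 with the crossed replicate block, and Lcn2 had 0.2401 and, with the length correction and replicate block, 0.04086, all under 2-fold. Over the 6 group means, 3 of the 5 genes most like Slpi, 4 for Saa3, 1 for Lcn2 and 3 for Hp remained.

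With the replicate block, Slpi with OI was -0.05 in WT cells and 0.27 in cells labelled Acod1-/-, and no call of the 4 genes changed. Same-numbered libraries share only a number, and their deviations correlated at 0.73 between the PM and the OI and PM groups in WT cells. Between the PM groups of the genotypes the correlation was -0.41, and exchanging the numbers gave 65 called genes in place of 63, against 61 with the block as labelled. Lcn2 rests on 7 to 29 reads a library outside the PM groups and Slpi on 5 to 8 reads with vehicle, which limits the precision of their fold changes.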
